A study of Mus musculus with 4 samples.

Results

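The genes described here are 10 ligand genes of the bone morphogenetic protein (BMP) and growth differentiation factor (GDF) family: Bmp2, Bmp3, Bmp4, Bmp5, Bmp6, Bmp7, Bmp8a, Gdf5, Gdf6 and Gdf10. They were chosen by symbol, with earlier results of these data known, among probe sets that carry exactly 1 gene symbol. All 10 were found among the 22180 genes measured. The cells were mouse skeletal stem cells (SSCs), which form bone, cartilage and stroma, kept in 3D collagen gel for 48 h. The 2 knockout arrays held RNA from Mmp14-/- cells and the 2 wild-type arrays RNA from Mmp14+/+ cells, all taken from mice aged 4 to 6 weeks. The arrays are numbered 1 and 2 within each genotype, and paired values are given in that order. Mmp14 encodes MT1-MMP, a membrane-bound protease that cuts collagen, and the series was set up as a screen for transcriptional changes. The labels give neither the part of Mmp14 that was deleted nor strain, sex, sorting markers or pooling of animals, and they do not say whether replicates were separate animals or cultures, so the p-values measure the spread between these arrays, which may be technical.

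BMPs and GDFs are secreted members of the transforming growth factor beta superfamily, first recognised through the bone-inducing activity of bone matrix. Each is made as a precursor, cut by furin-like convertases and released as a dimer that binds type I and type II serine/threonine kinase receptors. For many of the ligands, the receptors phosphorylate Smad1, Smad5 and Smad9, which enter the nucleus with Smad4 and switch on genes such as Id1. By sequence the ligands fall into branches, with Bmp2 beside Bmp4, Bmp5 to Bmp8 together, Gdf5 beside Gdf6 and Gdf7, and Bmp3 beside Gdf10, which is also named Bmp3b.

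Of the 10 ligand genes, 3 fell in Mmp14 knockout cells (Bmp3, Bmp7 and Bmp4), 2 rose (Gdf6 and Gdf10), 4 were tested without a call (Bmp2, Bmp5, Bmp6 and Gdf5), and Bmp8a was too dim to test. Bmp3 and Bmp7 carried the largest changes, 8.03-fold and 3.33-fold lower. A gene was tested when its mean over the 4 arrays reached 2.345 log2, the median of the whole table, and was called at a limma adjusted p below 0.05. Over all 12708 tested genes 11.3% were called, 6.2% higher and 5.12% lower, against 5 of the 9 tested ligand genes. The median absolute difference was 0.703 log2 over the 9 ligand genes and 0.175 over all tested genes. The groups did not overlap in 7 of the 9, beside 57.8% of all tested genes. With at least 1 log2 of change also required, 2 of the 9 were called (Bmp3 and Bmp7), against 3.51% of tested genes. The ligand genes were chosen with earlier results of these data known, so these contrasts describe the list and are not tests. Among 10 further ligand genes of the family on the array, 3 were tested and 0 called. Expression was measured in bulk, so fewer cells making a ligand and less RNA per cell cannot be told apart.

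**Figure D1:**
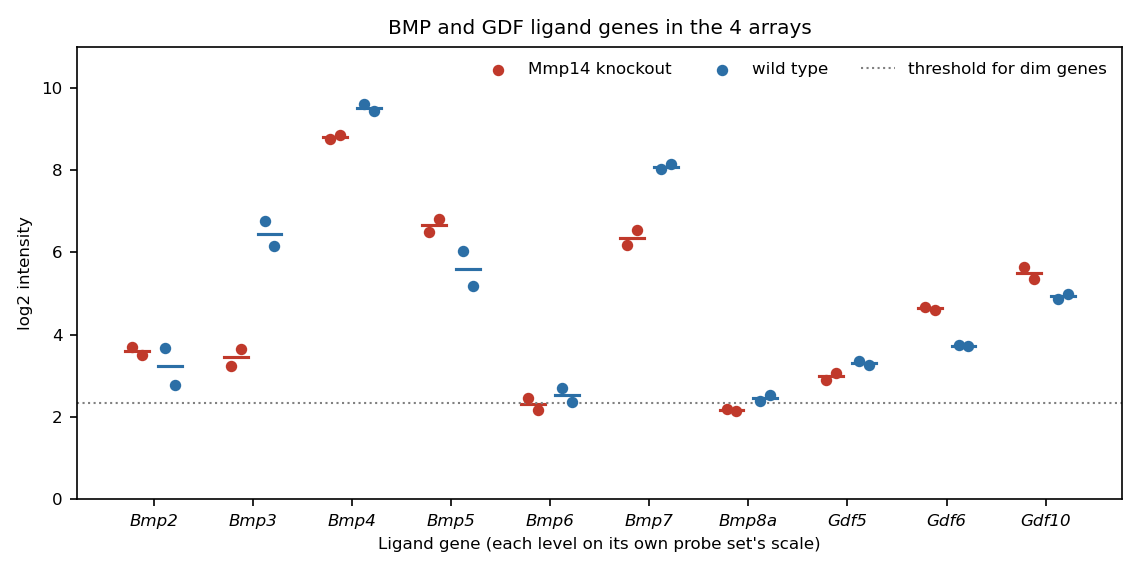
Log2 intensity (y axis) of the 10 ligand genes in each of the 2 Mmp14 knockout arrays (red, left) and 2 wild-type arrays (blue, right), with short lines at group means and a dotted line at the 2.345 log2 threshold for dim genes. Bmp3, Bmp4 and Bmp7 lie lower in knockout, Gdf6 and Gdf10 lie higher, and Bmp6 and Bmp8a lie near the threshold; levels cannot be ranked between genes.

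As checks, Mmp14 read 5.77 and 5.84 log2 in knockout against 8.77 and 8.83 in wild type, a difference of −2.99 (limma adjusted p = 0.000278). The mesenchymal gene Prrx1 was measured at 10.22 and 10.14 log2 in knockout and at 10.22 and 10.16 in wild type. All 5 endothelial markers lay below the threshold for dim genes. Of the 6 macrophage and leukocyte markers, 3 lay below it, Ptprc among them, and 3 lay above it (Cd68, Csf1r and Lyz2). Cd68 gave 4.38 and 4.64 log2 in knockout and 4.73 and 4.53 in wild type. The summed linear intensity of the 6 macrophage and leukocyte markers was 42.9 to 48.7 in knockout and 47.7 to 53.9 in wild type. The correlations of arrays over tested genes were 0.994 within knockout, 0.992 within wild type and 0.970 to 0.975 between the groups. Xist, the RNA of the inactive X chromosome, was 0.73 log2 higher in knockout (limma adjusted p = 0.0155) and the Y-linked Eif2s3y 0.69 lower (−0.69, limma adjusted p = 0.0474). Xist gave 9.30 and 9.09 log2 in knockout and 8.45 and 8.48 in wild type. Eif2s3y gave 5.19 and 5.40 log2 in knockout and 6.18 and 5.79 in wild type. Both genes thus lay above the threshold for dim genes in every array, and the mix of sexes was not tested. The Y-linked Kdm5d (−0.42, limma adjusted p = 0.104) and Uty (−0.25, limma adjusted p = 0.52, groups overlapping) were not called. Thus 2 of 4 tested sex markers were called, beside 11.3% of all tested genes. The part of these shifts in the ligand genes was not tested. The call of Xist was lost without knockout array 1 (0.0801), and that of Eif2s3y without that array (0.176), without knockout array 2 (0.0648) or without wild-type array 1 (0.107).

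Bmp3 and Gdf10 form the branch that departs most from the other BMPs. Bmp3 is abundant in bone matrix and is known to oppose the bone-forming activity of other BMPs. It gave 3.25 and 3.65 log2 in the knockout arrays, against 6.76 and 6.15 in the wild-type arrays. The groups were separated by 2.50 log2, several times the gap of 0.40 between the knockout arrays and of 0.61 between the wild-type arrays. Bmp3 fell by 3.00 log2 in knockout (limma adjusted p = 0.00166; SE 0.233, n = 2 each), leaving 12.5% of the wild-type signal. By size of change it was number 17 of the 12708 tested genes. Its call was kept on leaving out any 1 array, with differences of −3.31 to −2.70.

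Gdf10, the nearest relative of Bmp3, moved the other way. It gave 5.64 and 5.36 log2 in knockout against 4.87 and 4.99 in wild type, with no overlap. It rose by 0.57 log2, or 1.49-fold (limma adjusted p = 0.0473; SE 0.134, n = 2 each), just inside the threshold. The call was lost without wild-type array 1 (adjusted p = 0.125), wild-type array 2 (0.0889) or knockout array 1 (0.217), and without the filter on dim genes (0.0711). Without that filter 4 of the 10 ligand genes were called, against 5.07% of all 22180 genes.

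The promoter windows of Bmp4 and Gdf10 are printed because these are the only called ligand genes with an entry in the RefSeq promoter table (GRCm38.p6), and they moved in opposite directions. Each window runs 5′ to 3′ on the gene's strand from 250 bases before to 50 bases after the annotated start, and capitals mark matches to the motifs searched on both strands. The Bmp4 window is chr14:46390620-46390919 on the minus strand and the Gdf10 window is chr14:33923337-33923636 on the plus strand.
Bmp4: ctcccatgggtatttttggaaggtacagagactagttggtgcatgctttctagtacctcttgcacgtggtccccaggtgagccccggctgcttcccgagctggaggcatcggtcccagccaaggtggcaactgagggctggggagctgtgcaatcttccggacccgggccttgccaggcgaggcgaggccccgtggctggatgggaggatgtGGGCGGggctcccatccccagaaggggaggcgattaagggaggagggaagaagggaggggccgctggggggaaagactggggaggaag
Gdf10: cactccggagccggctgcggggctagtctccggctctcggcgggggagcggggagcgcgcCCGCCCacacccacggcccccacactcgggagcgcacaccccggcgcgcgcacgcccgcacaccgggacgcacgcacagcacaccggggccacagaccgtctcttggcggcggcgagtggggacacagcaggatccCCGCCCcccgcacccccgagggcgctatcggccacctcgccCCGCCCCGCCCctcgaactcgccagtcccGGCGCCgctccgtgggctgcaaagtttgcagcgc

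The motifs were the GC box GGGCGG, the GC-rich Smad1/5 element GGCGCC, the TCF/LEF core CTTTGA and the TATA box TATAAA. No motif contains another, although matches may share bases. The Bmp4 window held 1 GC box match and the Gdf10 window 4, of which 2 share a base, together with 1 match to GGCGCC. Over all 32851 windows, 35.7% held a GC box, 11.9% held GGCGCC, 16% held CTTTGA and 13.6% held TATAAA. Neither CTTTGA nor TATAAA was found in either window. The Gdf10 window was 77.3% G and C and the Bmp4 window 64%, against a median of 52.7% over all windows. Entries for Bmp5, Bmp6 and Bmp8a were also present, so 5 of the 10 ligand genes matched. The Bmp5 window was 43.3% G and C and held none of the 4 motifs. The Bmp6 window was 69.3% G and C with 1 GC box match, and the Bmp8a window 62% with 2. A match is a run of letters and does not show that a factor binds.

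Bmp2 and Bmp4 are the closely related ligands whose activity in bone induction is best known. Bmp4 gave 8.76 and 8.87 log2 in knockout, against 9.61 and 9.43 in wild type. The groups lay 0.56 log2 apart, more than the gaps of 0.11 and 0.17 between replicates. Bmp4 fell by 0.70 log2, or 1.63-fold (limma adjusted p = 0.0159; SE 0.115, n = 2 each). The call was lost without wild-type array 1 (adjusted p = 0.0503) or knockout array 1 (0.0823). Bmp2 gave 3.70 and 3.50 log2 in knockout and 3.68 and 2.78 in wild type, so the groups overlapped and the wild-type arrays differed by 0.90 log2. Its difference was 0.37 (95% interval −0.33 to 1.07, limma adjusted p = 0.461). The direction for Bmp2 rested on 1 wild-type array, since the difference was −0.08 without wild-type array 2 and 0.82 without wild-type array 1, where it was called (adjusted p = 0.0341).

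In the branch of Bmp5, Bmp6, Bmp7 and Bmp8a the largest change was in Bmp7, also called osteogenic protein 1, which is needed for kidney and eye development in mice. Bmp7 gave 6.17 and 6.54 log2 in knockout, against 8.02 and 8.16 in wild type. The nearest arrays of the groups were 1.48 log2 apart, against gaps of 0.36 and 0.14 within them. It fell by 1.74 log2 (limma adjusted p = 0.0022; SE 0.150, n = 2 each), which left 30% of the wild-type signal. Leaving out any 1 array kept the call, with differences of −1.92 to −1.55.

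Bmp5, the gene mutated in the short ear mouse and needed for normal cartilage growth of the outer ear and sternum, lay on the other side of 0. It gave 6.49 and 6.82 log2 in knockout and 6.03 and 5.18 in wild type, without overlap. The difference of 1.05 log2 was not called (95% interval 0.37 to 1.74 before adjustment, limma adjusted p = 0.0663), beside a gap of 0.85 log2 between the wild-type arrays. The size rested on which wild-type array was kept, with a difference of 0.63 (adjusted p = 0.105) without wild-type array 2 and of 1.47, which was called (adjusted p = 0.0137), without wild-type array 1. It was also called with the looser threshold of 0.1, at which 6 of the 9 tested ligand genes and 18.6% of all tested genes were called.

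Bmp6, known for its control of the iron hormone hepcidin in liver, was dim at 2.45 and 2.17 log2 in knockout and 2.70 and 2.36 in wild type. Its knockout mean lay below the threshold for dim genes and its wild-type mean above. The groups overlapped and the difference was −0.22 (95% interval −0.62 to 0.17, limma adjusted p = 0.43). Bmp8a, best known from mouse spermatogenesis, gave 2.19 and 2.14 log2 in knockout and 2.38 and 2.53 in wild type. Its mean over the arrays did not reach the threshold, so it stood outside the test, and signals this low say little about either gene.

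**Figure D2:**
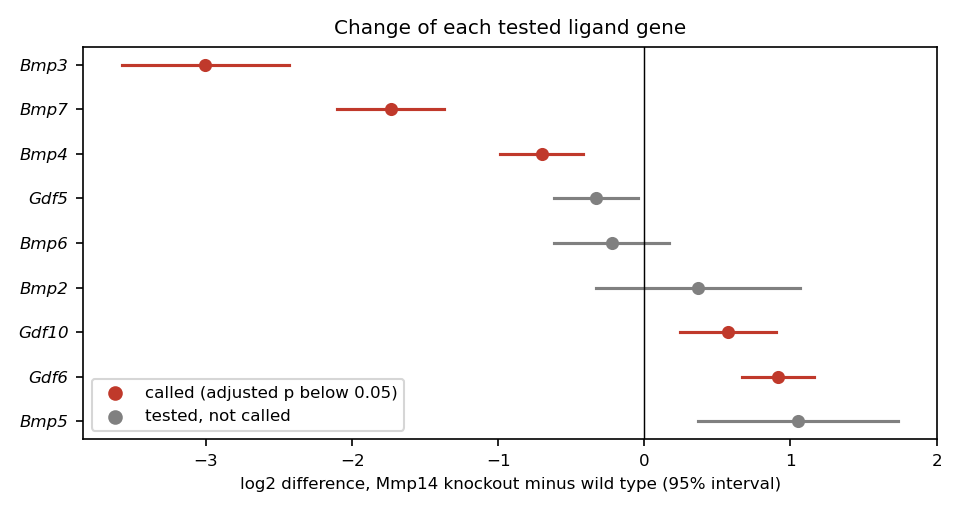
Log2 difference (x axis, Mmp14 knockout minus wild type) of the 9 tested ligand genes with 95% intervals from limma, not adjusted for the number of genes; red marks genes called at an adjusted p below 0.05 and grey those not called. The order runs from Bmp3 at −3.00 to Bmp5 at 1.05, and the intervals of Bmp2 and Bmp6 span 0.

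Gdf5 and Gdf6 are ligands of joint formation, and Gdf5 is the gene mutated in brachypodism mice. Gdf6 gave 4.67 and 4.61 log2 in knockout, against 3.74 and 3.71 in wild type. Replicates lay within 0.06 and 0.02 log2 of each other and the groups were 0.87 apart. Gdf6 rose by 0.92 log2, or 1.89-fold (limma adjusted p = 0.00465; SE 0.101, n = 2 each), and it stayed called whichever array was left out. Gdf5 gave 2.89 and 3.08 log2 in knockout and 3.36 and 3.27 in wild type. Its difference of −0.33 was not called (95% interval −0.62 to −0.05 before adjustment, limma adjusted p = 0.132). A second Gdf5 probe set, dimmer still at 1.40 and 1.25 log2 in knockout and 1.48 and 1.54 in wild type, gave −0.18. The other 9 ligand genes had 1 probe set each. Gdf7, the remaining gene of this branch, gave 3.60 and 3.06 log2 in knockout and 2.65 and 2.46 in wild type, and its difference of 0.77 was not called (limma adjusted p = 0.0576).

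**Figure D3:**
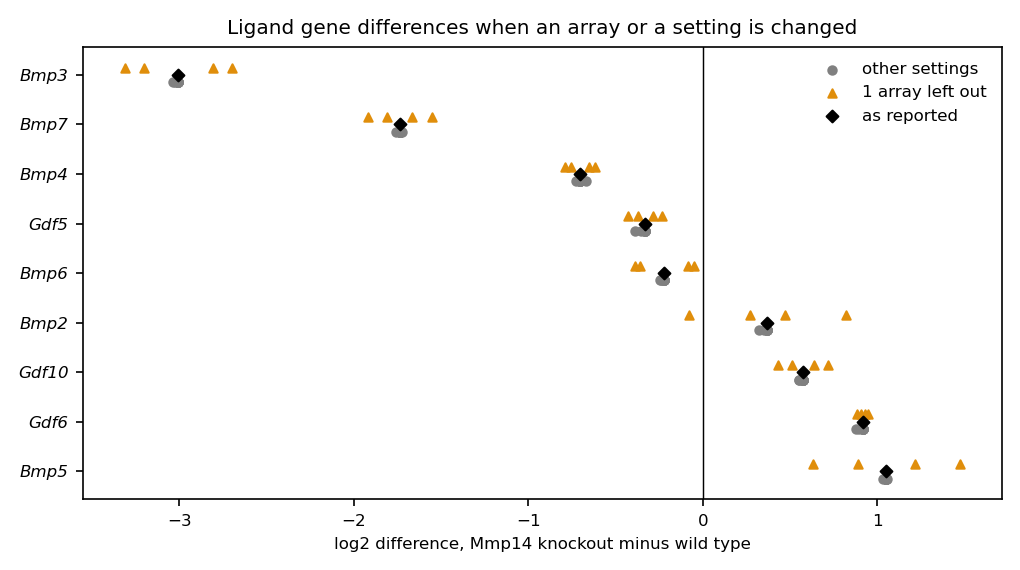
Log2 difference (x axis, Mmp14 knockout minus wild type) of the 9 tested ligand genes as reported (black), with 1 array left out (orange) and under the other settings that test the gene (grey). Leaving out an array moved the values furthest except for Gdf6, and the sign changed for Bmp2 alone, at −0.08.

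Of 12 further ligand genes of the family, 10 were on the array, and 7 of these lay below the threshold, among them Bmp8b, Bmp10, Gdf2 and Mstn. Of the 3 tested, Gdf7, Gdf11 (0.11, limma adjusted p = 0.65) and Nodal, 0 were called by limma, beside 11.3% of all tested genes. Of these 3, 1, Gdf7, had an unadjusted p below 0.05, as had 27.5% of all tested genes.

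Of the 11 tested receptor and co-receptor genes, 2 rose and 9 were not called, beside 6.2% of all tested genes called higher. Acvrl1, a type I receptor that binds Gdf2 and Bmp10, gave 4.12 and 4.00 log2 in knockout against 3.33 and 3.39 in wild type (difference 0.70, limma adjusted p = 0.0129). The co-receptor gene Tgfbr3, or betaglycan, rose by 0.57 (limma adjusted p = 0.0346). Tgfbr3 was not called in any fit that lacked an array (adjusted p = 0.0597 to 0.172), and Acvrl1 without knockout array 1 (0.0737). The type I receptor gene Bmpr1a (0.34, limma adjusted p = 0.0973) and the type II receptor gene Bmpr2 (0.08, limma adjusted p = 0.685) were not called. The median of the list was 0.13 log2, beside −0.0041 over all tested genes.

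Extracellular antagonists, which bind ligands and keep them from receptors, moved both ways. Of 13 tested genes 1 was called higher and 2 lower, beside 6.2% and 5.12% of all tested genes. Chrdl1, a chordin-like antagonist, gave 8.80 and 8.62 log2 in knockout against 7.65 and 7.34 in wild type, a rise of 1.22 (limma adjusted p = 0.00576). Bmper, a chordin-like protein that binds BMPs and can act for or against them, gave 3.02 and 3.10 log2 in knockout against 4.65 and 4.81 in wild type, a difference of −1.67 (limma adjusted p = 0.00121). The follistatin relative Fstl3, which binds activins and myostatin, fell by 0.91 (limma adjusted p = 0.00999). Grem1 (−0.67, limma adjusted p = 0.0595) and Twsg1 (−0.41, limma adjusted p = 0.0575) were not called, nor was noggin (Nog, −0.36). Crim1 (−0.08), Fstl1 (−0.03) and Nbl1 (0.005) were not called either. Of the 13 tested genes 3 lay above 0 and 10 below, beside 50.65% of all tested genes below. The median of the list was −0.34 log2.

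Among the proteases that cut BMP precursors or release the ligands from chordin, 0 of 6 tested genes were called by limma. Over all tested genes 11.3% were called. Of the 6, 2 had an unadjusted p below 0.05, as had 27.5% of all tested genes. Pcsk7 came nearest to a call (−0.34, limma adjusted p = 0.083). Furin, the main convertase gene, differed by −0.19 (limma adjusted p = 0.3) and Bmp1, a tolloid protease and no BMP ligand despite its name, by −0.06 (limma adjusted p = 0.75).

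Downstream, 2 of 6 Smad and Smurf genes fell and 4 were not called, beside 5.12% of all tested genes called lower. Smad1, a receptor-activated Smad, gave 5.66 and 5.67 log2 in knockout against 6.19 and 6.27 in wild type (difference −0.56, limma adjusted p = 0.0222). Smurf2, a ubiquitin ligase that directs Smads and receptors to breakdown, fell by 0.91 (limma adjusted p = 0.00576). The call of Smad1 was lost without wild-type array 2 (adjusted p = 0.0724), knockout array 1 (0.112) or knockout array 2 (0.0881).

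Of 10 tested feedback and target genes of BMP signalling, 5 fell, 1 rose and 4 were not called. Over all tested genes 5.12% were called lower and 6.2% higher. The list's median was −0.65 log2. Msx2, a homeobox gene of bone and skull, gave 5.94 and 5.71 log2 in knockout against 7.29 and 7.77 in wild type, a difference of −1.70 (limma adjusted p = 0.00433). Atoh8 (−1.29, limma adjusted p = 0.0133) and the osteoblast homeobox gene Dlx5 (−1.04, limma adjusted p = 0.00585) also fell. Id1, an inhibitor of basic helix-loop-helix factors and a direct Smad target, gave 4.59 and 4.67 log2 in knockout against 5.34 and 5.48 in wild type (difference −0.78, limma adjusted p = 0.0103). Id3 fell by 0.71 (limma adjusted p = 0.0436), and Id4 rose by 0.89 (limma adjusted p = 0.0254).

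The inhibitory Smad gene Smad6 (−0.45, limma adjusted p = 0.0615), Id2 (−0.59, limma adjusted p = 0.0803) and Smad7 (−0.21, limma adjusted p = 0.323) were not called. The call of Id3 was lost on dropping 3 of the 4 arrays (adjusted p = 0.103 without wild-type array 2, 0.0815 without knockout array 1 and 0.137 without knockout array 2). Id4 lost its call without wild-type array 1 (0.0655), wild-type array 2 (0.0854) or knockout array 2 (0.0571), and Id1 without knockout array 1 (0.052). Several of these genes also answer to other pathways, and the list is not a measure of BMP signalling alone.

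**Figure D4:**
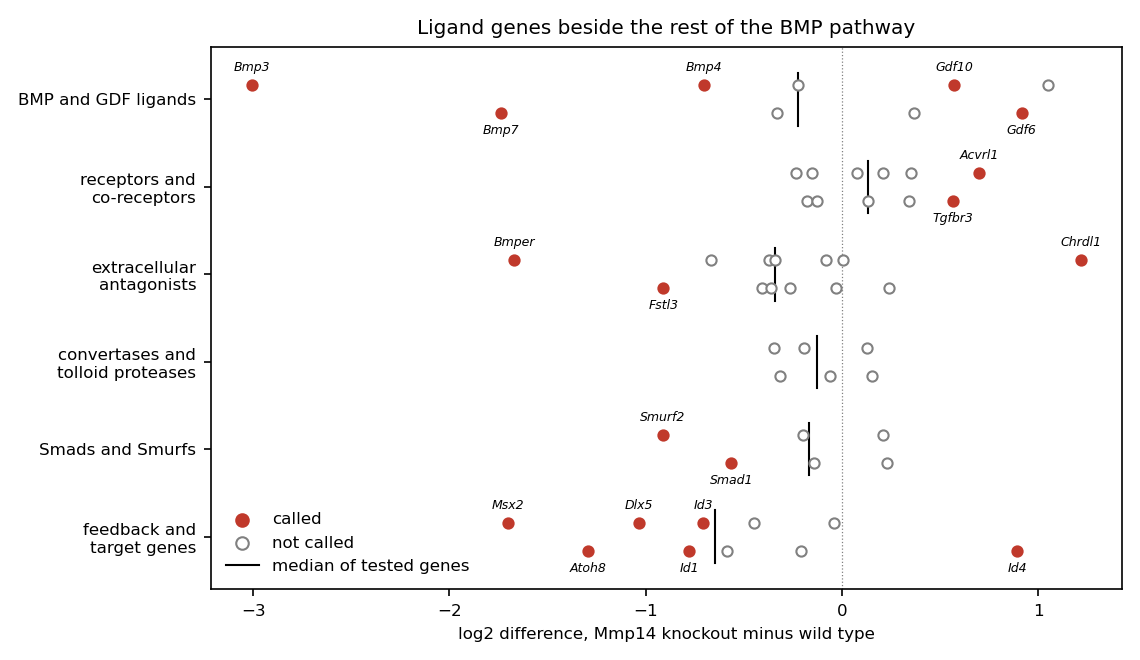
Log2 difference (x axis, Mmp14 knockout minus wild type) of each tested gene of 6 groups of the BMP pathway, from ligands at the top to target genes at the bottom; filled red points with names are called, open points are not, and black bars are medians. The ligand genes span −3.00 to 1.05, and 9 of the 10 feedback and target genes lie below 0, beside 50.6% of all tested genes.

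Markers of osteoblasts, chondrocytes, adipocytes, skeletal stem and stromal cells, and osteoclasts were read in the same arrays as the ligand genes. Over all tested genes 6.2% were called higher and 5.12% lower. The 4 osteoblast markers measured had a summed linear intensity of 73.5 to 87.2 in knockout and 329.5 to 346.8 in wild type, with both tested members, Sp7 (−3.08) and Alpl (−1.76), lower and the other 2, Ibsp and Bglap, below the threshold for dim genes. The 6 chondrocyte markers summed to 2855 to 3214 in knockout and 3085 to 3161 in wild type, with Sox9 higher (1.92) and Acan (−1.97) and Comp (−1.21) lower. The 5 adipocyte markers summed to 132.8 to 140.5 in knockout and 42.8 to 51.4 in wild type. Pparg alone was called (2.31), and it was the largest term of that sum in every array. It gave 6.84 and 6.74 log2 in knockout and 4.23 and 4.73 in wild type. Cebpa (0.40), Adipoq (−0.11) and Fabp4 (−0.07) were not called, and Plin1 lay below the threshold for dim genes. The 10 skeletal stem and stromal markers summed to 6575 to 6637 in knockout and 6163 to 6203 in wild type. Of these, 3 rose, Cxcl12 (1.81), Pdgfra (1.77) and Cd200 (1.46), and Lepr fell (−2.26). The 4 osteoclast markers summed to 49.6 to 55.1 in knockout and 61.5 to 70.4 in wild type, with 0 of 2 tested called by limma and 1 at an unadjusted p below 0.05 (27.5% of all tested genes). The part of these markers in the changes of the ligand genes was not tested.

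The genes with the pattern nearest to that of Bmp3 over the 4 arrays, by Euclidean distance of values centred on each gene's mean, were Tnn (0.476), which encodes tenascin-W, Mmp14 itself (0.531) and the small GTPase gene Gem (0.589). Tnn gave 2.68 and 3.73 log2 in knockout against 6.65 and 5.91 in wild type. Nearest to Bmp5, the ligand gene with the largest positive difference over all 4 arrays, were the semaphorin gene Sema3d (0.15), S100b (0.234) and the carbonic anhydrase gene Car12 (0.251). Sema3d gave 6.45 and 6.61 log2 in knockout and 5.83 and 4.94 in wild type, the same low wild-type array 2 as in Bmp5. With 4 arrays these distances describe the arrays only.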

How the data were processed

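The deposited table held log2 intensities for 41345 probe sets on 4 Affymetrix arrays. Per the submitters' processing notes limma and oligo were used, without version or role; the normalization is not given in the sources used here, and the log2 scale was read from the values (0.43 to 12.2). The number of arrays limits the precision. Symbols came from the platform annotation: 23521 probe sets had 1 symbol, 1814 several and 16010 none listed. Each gene was read from its brightest probe set (highest mean), and those averaging 2.345 log2 or more were tested. Knockout minus wild type was fitted over all 12708 genes in R 4.3.3 with limma 3.58.1 (lmFit, eBayes, two-sided, 2 residual degrees of freedom) and adjusted by Benjamini and Hochberg. With 1 array left out, the lone array of its group is assumed to vary like the other group.

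Members and lists were chosen with earlier results of these data known. All ligand genes were named, Mmp14, Xist and Eif2s3y as checks, called genes of each list with up to 4 others, and the 3 nearest patterns to the ligand genes with the largest change each way. Other genes, lineage markers included, came from those lists. Nog, Grem1, Nodal and the least adjusted p among the proteases were named after their values were seen. Deviations of same-numbered arrays correlated at −0.04, so numbers were not treated as pairs.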

Additional observations from a re-analysis of the deposited data

How the results depend on the processing

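Calls of Bmp3 and Bmp7 held under all 15 alternatives run (limma adjusted p up to 0.0405 and 0.0441). Among these, the looser threshold of 0.1 could not lose a call. Averaging probe sets left the values of both genes unchanged. When the fit took in every probe set without a filter, 218 probe sets and 2 ligand genes were called. Bmp4 (limma adjusted p = 0.12), Gdf6 (0.0619) and Gdf10 (0.226) were lost. That fit tests all 41345 probe sets and its eBayes step also runs over all of them. Why calls were lost was not tested. Requiring at least 1 log2 left 446 genes and 2 ligand genes, and an adjusted p below 0.1 gave 2365 genes. Leaving out 1 array gave 687 to 1131 genes and 3 to 5 ligand genes, the fewest without Mmp14 knockout replicate 1. With the replicate number as a block, 1057 genes and 4 ligand genes were called, Gdf10 being lost (adjusted p = 0.084). Gdf10 was also lost with quantile normalization (0.0613) and array weights (0.0519). Bmp5 was called with trend and robust eBayes (0.019) and with the stricter filter on dim genes (0.0163), which left 5 ligand genes in the fit. No called ligand gene changed direction under any alternative. Scaling moved the median of all genes by under 0.1 log2. With 2 arrays per genotype and no scanner files used here, dim genes such as Bmp6 and Bmp8a cannot be resolved.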
